A study of Mus musculus with 6 samples.

Results

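The genes described here are the cytokines, the chemokines and their receptors: the interleukins, the tumour necrosis factor (TNF) superfamily, the interferons, and the CC and CXC chemokines, each with its receptor family. They were chosen by gene symbol alone, from probe sets that carry exactly 1 symbol, which gave 130 probe sets for 111 genes, of 8252 genes named in this way on the array. Each gene was represented by the probe set with the highest mean over the 6 arrays. The study concerned mice that overexpress HuD, and total RNA from 6 hippocampus samples was hybridised to 1 array each. Which of the samples came from such mice is not labelled. Genotype, strain, age and treatment are not labelled for any sample, so the samples form no groups and are called samples 1 to 6 after their titles. Differences between single samples have no replicate check, and no test was made between samples. All values are signal intensities as deposited. A level is also given as log2 of the signal over the median of its array, so that 0 is the array median.

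Cytokines are mostly secreted proteins that carry signals between cells by binding receptors at the cell surface. Interleukin and interferon receptors signal mostly through JAK kinases and STAT transcription factors, TNF receptors through adaptor proteins to NF-kappa-B or to caspases, and chemokine receptors through G proteins that steer cell migration. In the healthy brain most inflammatory cytokines are made at low levels until microglia, astrocytes or invading leukocytes are activated, whereas several receptors and a few chemokines are made all the time by neurons and glia. Many cytokine mRNAs carry AU-rich elements, the class of sequence bound by HuD, a neuronal RNA-binding protein (gene symbol Elavl4).

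Most of these genes were dim in hippocampus. Of the 111 genes, 15 had a median over the 6 samples above the array median, and 96 lay under it, against 58.7% of all 8252 genes above it. In all 6 samples, 12 genes lay above the array median (53.6% of all genes) and 90 lay under it (36.3% of all genes). The other 9 changed side between samples, as did 831 of all 8252 genes. The array median is only a yardstick, since no detection calls were used here, and a value under it is not shown to be above background. A value under 0.2 of the array median was set to that floor. At the floor in all 6 samples were 32 of the 111 genes, against 726 of all 8252 genes. In bulk tissue, fewer cells of a type and less RNA per cell cannot be told apart.

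Of 7 well-known cytokines, Tnf, Il1b, Il6, Ifng and Ccl2 were at the floor in every sample, whereas Il1a and Il10 were not. Tnf, the founding member of its superfamily, had signals of 9.42, 9.94, 7.84, 8.50, 9.11 and 7.91 in samples 1 to 6, at the floor in every sample. Il1b, the interleukin released by activated microglia, had 5.00, 4.85, 3.49, 3.38, 3.98 and 4.85, also at the floor throughout. Il6, Ifng and Ccl2 were at the floor in all 6 samples too, with signals of at most 11.6, 7.85 and 7.59. Il1a, the cell-associated partner of Il1b, was at the floor in 3 samples and reached 20.8 in sample 3, while the array medians were between 59.9 and 63.3. Il10, an anti-inflammatory interleukin, is represented by a probe set that bears a control name and ran between 6.45 in sample 3 and 25.3 in sample 4. Each of these 7 cytokines was under the array median in every sample.

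**Figure D1:**
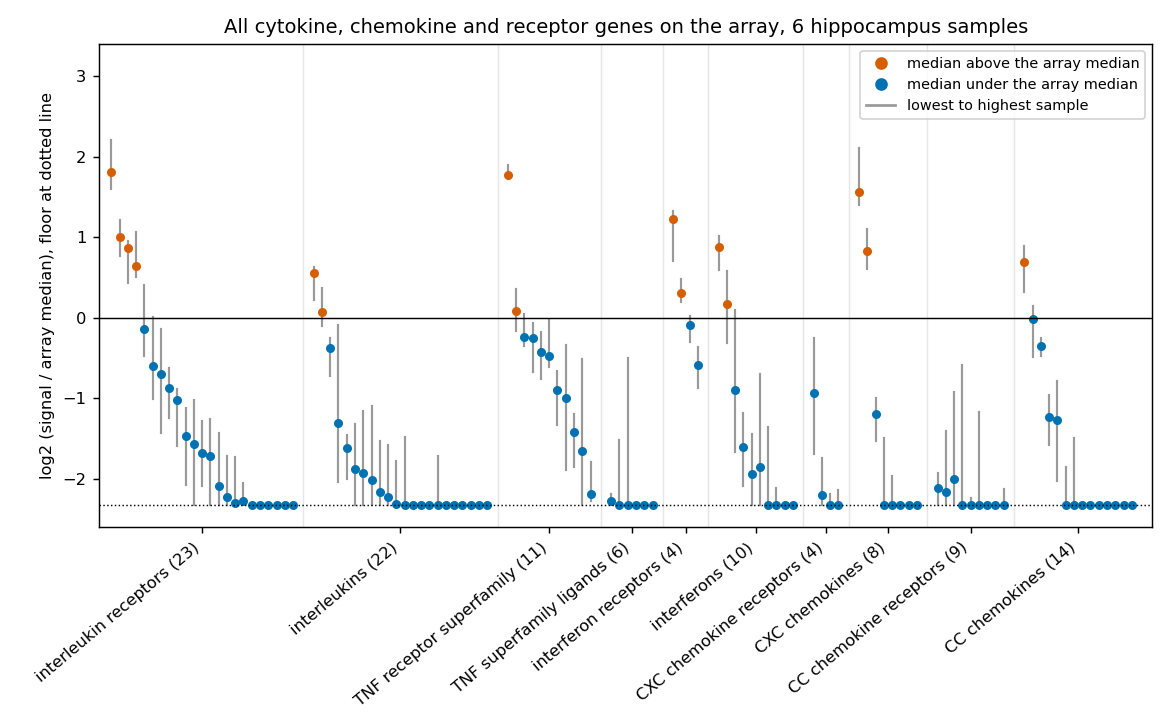
Median level of each of the 111 genes by family (points) with the span from the lowest to the highest of the 6 samples (grey bars), as log2 of signal over array median, with the floor at -2.32 drawn as a dotted line. The 15 genes above the array median (orange) come from 7 of the 10 families, and no TNF superfamily ligand, CXC receptor or CC receptor is among them.

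Receptor chains and ligands were both mostly under the array median. Of 51 receptor chains, 8 had a median above it (15.7%), and of 60 ligands, antagonists and binding proteins, 7 had (11.7%). By family the counts were 4 of 23 interleukin receptors, 2 of 22 interleukins, 2 of 11 TNF receptors, 0 of 6 TNF ligands, 2 of 4 interferon receptors, 2 of 10 interferons, 0 of 4 CXC receptors, 2 of 8 CXC chemokines, 0 of 9 CC receptors and 1 of 14 CC chemokines. For both interferons above the array median the probe-set name denotes probes common to related genes, so they may read several interferon alpha genes.

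Promoter sequence was not used in choosing the genes, and a TATA box and a high density of CpG dinucleotides are textbook features by which promoters differ. RefSeq promoter windows (GRCm38.p6, 250 bases before to 50 bases after the transcription start, the most upstream start of each gene) were held for 90 of the 111 genes. In each window the CpG dinucleotides were counted, and the motif TATAAA was searched on the strand of the gene in the 50 bases before the start. The motif and the minimum of 15 CG used below were chosen after the counts were seen. The 120 bases before the start are shown for 3 genes above the array median in all 6 samples and for 3 inflammatory cytokines at the floor, with capitals marking every CG dinucleotide and the motif TATAAA. All 6 were chosen after their values and windows were seen, the cytokines among those that hold TATAAA. The 3 genes above the array median were chosen among those with at least 15 CG, so the sequences do not show a typical contrast. Il6, also at the floor, has 3 CG and no TATAAA.
Ifngr2, chr16:91546939-91547058, plus strand: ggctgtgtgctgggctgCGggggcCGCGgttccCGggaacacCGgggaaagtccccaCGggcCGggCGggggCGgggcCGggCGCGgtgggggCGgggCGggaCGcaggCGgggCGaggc
Il6st, chr13:112463950-112464069, plus strand: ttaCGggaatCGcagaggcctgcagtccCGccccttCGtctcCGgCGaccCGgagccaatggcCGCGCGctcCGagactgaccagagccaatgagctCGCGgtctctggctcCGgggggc
Cxcl14, chr13:56296552-56296671, minus strand: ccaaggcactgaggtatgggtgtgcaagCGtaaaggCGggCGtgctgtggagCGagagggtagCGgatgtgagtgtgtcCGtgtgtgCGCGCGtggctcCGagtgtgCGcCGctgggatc
Tnf, chr17:35202008-35202127, minus strand: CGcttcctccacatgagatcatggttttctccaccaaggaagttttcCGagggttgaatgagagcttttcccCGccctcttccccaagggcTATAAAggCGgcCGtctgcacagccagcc
Il1b, chr2:129371140-129371259, minus strand: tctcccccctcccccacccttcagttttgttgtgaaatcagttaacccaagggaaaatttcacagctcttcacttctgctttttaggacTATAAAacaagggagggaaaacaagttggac
Ifng, chr10:118440926-118441045, plus strand: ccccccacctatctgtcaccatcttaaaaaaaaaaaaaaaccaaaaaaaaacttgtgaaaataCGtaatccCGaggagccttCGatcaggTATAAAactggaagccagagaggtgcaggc
The windows of Ifngr2, Il6st and Cxcl14 are dense in CG (31, 33 and 22 in 300 bases) and hold no TATAAA. Those of Tnf, Il1b and Ifng have 11, 3 and 7, and each has a TATAAA that starts 29, 31 and 30 bases before the transcription start.

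Counts over all windows were as follows. Of the 12 genes above the array median with a window, 6 had at least 15 CG, with a median of 12.5, and none held TATAAA. Of the 78 under the array median, 12 had at least 15 CG, with a median of 4, and 12 held TATAAA: Tnf, Il1a, Il1b, Il2, Il13, Il17a, Ifng, Ccl8, Ccl12, Cxcl13, Il13ra2 and Cxcr4. For comparison, 74.9% of array genes above the array median and 44.5% of those under it had at least 15 CG, and 2.03% and 6.25% held TATAAA (3.73% of all array genes). Over all genes of the promoter table these shares were 35.2% with at least 15 CG and 2.88% with TATAAA. Receptor windows had a median of 6 CG and 2 of 42 held TATAAA, and windows of ligands, antagonists and binding proteins had a median of 3 CG and 10 of 48 held it. Windows with many and with few CG were found on both sides of the array median. Ifna5, Il18, Ifnab and Il16 were above it with 1 to 3 CG, Tnfrsf18 with 4 and Ccl22 with 8. Ccl25 had 52 CG and was at the floor in all 6 samples, and the receptor Cxcr4 had both 20 CG and TATAAA. These are counts over genes, with no test, and a motif match is not a shown binding site.

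**Figure D2:**
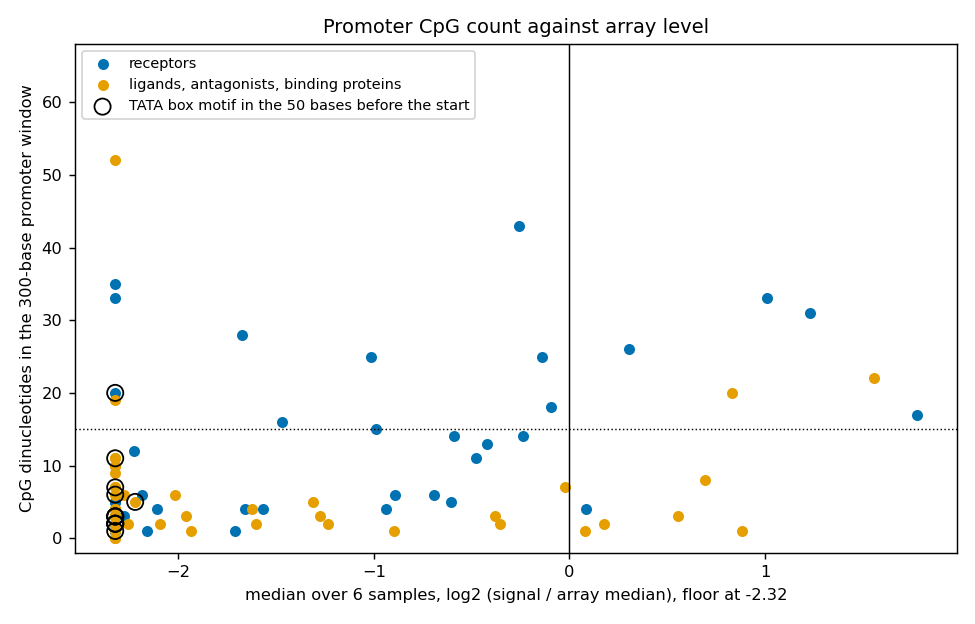
CpG dinucleotides in the 300-base promoter window against the median array level (log2 of signal over array median, values under the floor drawn at -2.32) for the 90 genes with a window, receptors in blue and ligands, antagonists and binding proteins in orange. Circles mark the 12 windows with the TATA box motif, all left of the array median, and the dotted line marks 15 CpG.

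Among interleukin receptors, Il27ra, Il6st, Il17ra and Il10rb were above the array median in all 6 samples. Il27ra, the receptor chain for interleukin 27, had signals of 190.3, 199, 219, 219, 291 and 222 in samples 1 to 6. Sample 5 was the highest and sample 1 the lowest, a range of 1.52-fold (0.61 on the log2 scale, after scaling). Il6st encodes gp130, the signalling chain shared by the receptors of the interleukin 6 family, and had 144, 142, 102, 126, 124 and 127. Samples 1 and 2 were high and sample 3 low, with a range of 1.36-fold. Il6ra, the chain that binds interleukin 6 itself, had 56.6, 81.0, 43.1, 68.4, 57.7 and 46.2, above the array median in samples 2 and 4 only. After scaling, Il6st and Il6ra were both highest in sample 2 and lowest in sample 3, though in deposited signal Il6st was highest in sample 1. The other Il6st probe set was highest in sample 5. This order was picked after the values were seen. Of the 4840 genes above the array median, which do not include Il6ra, 2.15% had it.

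Il17ra, the common chain of interleukin 17 receptors, had signals of 122, 113, 109, 85.5, 111 and 119. Sample 4 lay below the other samples, and the range was 1.43-fold (0.52 on the log2 scale, or 0.14 without sample 4). Il10rb, a chain shared by receptors for interleukin 10 and related cytokines, had 96.2, 103, 90.6, 89.9, 101 and 132, with sample 6 the highest and a range of 1.48-fold. Il1r1, the signalling receptor of interleukin 1, was near or under the array median, at 33.8, 57.6, 29.8, 63.7, 33.7 and 50.6. It was higher in samples 2, 4 and 6 and crossed the array median in sample 4 alone, so its measured range of 2.02-fold rests on values not shown to be above background. The 17 interleukin receptors under the array median in all samples were Il1r2, Il1rap, Il2ra, Il2rb, Il3ra, Il4ra, Il5ra, Il7r, Il9r, Il10ra, Il12rb1, Il12rb2, Il13ra1, Il13ra2, Il15ra, Il18r1 and Il18rap, with signals between 0.231 and 57.0.

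Of the interleukins, Il16 and Il18 were above the array median. Il16, a chemoattractant for CD4 cells that also exists in a longer neuronal form, had signals of 89.9, 71.7, 92.7, 85.7, 95.3 and 96.2. Sample 2 was the lowest and the range was 1.32-fold. Il18, which caspase-1 activates in the inflammasome pathway, had 76.4, 64.5, 77.5, 67.1, 58.9 and 61.6 and was under the array median in samples 5 and 6. Its inhibitor Il18bp was under the array median throughout, at 44.9, 14.9, 24.4, 59.6, 19.7 and 25.1. Samples 1 and 4 were high, and the measured range of 3.88-fold was the widest of all 111 genes, on values not shown to be above background. The other interleukins under the array median in all samples were Il1a, Il1b, Il1rn, Il1f5, Il2, Il3, Il4, Il5, Il6, Il7, Il9, Il10, Il11, Il12a, Il12b, Il13, Il15, Il17a and Il17d, and 9 of the 20 (Il18bp included) were at the floor in every sample.

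In the TNF receptor superfamily, Tnfrsf21 was above the array median in all samples and had the smallest range of the 15 genes. Tnfrsf21 encodes death receptor 6, a receptor of neurons, and had signals of 207, 220.4, 199, 210.4, 223 and 234. The 6 samples lay within 1.13-fold of each other after scaling, at the 5.39th percentile of range among genes above the array median. Tnfrsf18, the T cell receptor known as GITR, had 61.1, 54.99, 61.4, 81.2, 77.9 and 69.1, and was above the array median in 4 samples. Tnfrsf19, known as TROY, had 54.0, 48.2, 50.4, 54.1, 65.0 and 51.9 and crossed the array median in sample 5 only. The TNF receptors proper lay just under it, Tnfrsf1a between 41.1 and 60.3 and Tnfrsf1b between 35.3 and 55.95. Tnfrsf11a, the receptor RANK, its decoy Tnfrsf11b, Tnfrsf4, Tnfrsf8, Tnfrsf9 and Tnfrsf17 were also under it in all samples. None of these 8 dim receptors was at the floor in every sample. The ligands Tnf, Tnfsf4, Tnfsf8, Tnfsf9, Tnfsf10 and Tnfsf11 were all dim. Tnfsf9, the ligand of the T cell receptor 4-1BB, was at the floor in 5 samples and had a signal of 44.6 in sample 6, under the array median.

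Of the interferon receptor chains, Ifngr2 and Ifnar1 were above the array median in all 6 samples. Ifngr2, the signalling chain of the interferon gamma receptor, had signals of 155, 113, 149, 142, 159 and 102. Samples 2 and 6 were low and the range was 1.55-fold. Ifnar1, a chain of the receptor for interferons alpha and beta, had 78.4, 79.5, 73.1, 76.6, 88.1 and 71.7, with a range of 1.22-fold. Its partner Ifnar2 was close to the array median, at 63.7, 62.2, 57.3, 58.2, 56.3 and 51.0. All 3 chains were lowest in sample 6, and Ifngr2 and Ifnar1 were highest in sample 5, an order shared by 2.29% of genes above the array median. That order too was picked after the values were seen. A dimmer Ifnar2 probe set, with a name that marks shared probes, was instead lowest in sample 5 at 11.6 and had 22.0 in sample 6. Ifngr1, the ligand-binding chain for interferon gamma, was under the array median, between 33.6 in sample 2 and 48.9 in sample 1.

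Among the interferons, Ifna5 had signals of 112, 92.6, 121, 120.4, 106 and 126 and Ifnab had 94.0, 49.2, 52.6, 77.4, 65.8 and 77.2. Sample 2 was the lowest for both. Ifnab had the widest range of the 15 genes above the array median, 1.87-fold, part of it on values under the array median. Ifna9, also on a shared probe set, crossed the array median in sample 6 only, at 67.2, and had 60.6 in sample 2 and 19.8 in sample 1. Ifna2, Ifna4, Ifna7, Ifna11, Ifna15, Ifnb1 and Ifng stayed under the array median throughout, with signals of at most 37.7.

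The chemokines above the array median were Cxcl14, Cxcl12 and Ccl22. Cxcl14, a chemokine made in hippocampus by subsets of GABAergic interneurons, had signals of 179, 188, 259, 179.9, 167 and 191. Sample 3 lay above the other samples, which kept within 167 to 191, and the range was 1.63-fold (0.70 on the log2 scale, or 0.21 without sample 3). In sample 3 the 3' to 5' signal ratios of the pyruvate carboxylase and transferrin receptor control probe sets, a measure of RNA integrity, were also the highest of the 6 arrays (3.56 and 3.47), while those of beta-actin and Gapdh were highest in sample 1 (1.27 and 0.86, against 1.21 and 0.82 in sample 3). Sample 3 held the highest value of 31.2% of genes above the array median. The part of these in the level of Cxcl14 was not tested.

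Cxcl12, the stromal cell-derived factor that guides migrating neurons, had signals of 106, 108, 128, 96.0, 114 and 135, and a range of 1.41-fold. Samples 3 and 6 were the highest. Its receptor Cxcr4 was dim, between 7.54 and 13.9, and at the floor in 5 samples. Ccl22, which recruits T cells through Ccr4, had 78.5, 98.6, 111, 103, 94.99 and 115. Samples 3 and 6 were again the highest, sample 1 the lowest, and the range was 1.48-fold. Ccl1, a chemokine of activated T cells, had 44.7, 62.5, 57.1, 70.0, 61.3 and 62.9 on a probe set whose name marks less specific probes, above the array median in 3 samples. The other Ccl1 probe set was far dimmer, between 4.47 in sample 4 and 20.9 in sample 6, under the array median in every sample.

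The remaining chemokines and all their receptors were under the array median in every sample. These were Ccl2, Ccl3, Ccl4, Ccl5, Ccl6, Ccl7, Ccl8, Ccl9, Ccl11, Ccl12, Ccl17 and Ccl25, and Cxcl1, Cxcl2, Cxcl5, Cxcl9, Cxcl10 and Cxcl13, with signals of at most 51.7 and 31.6. Ccl6 kept between 45.5 and 51.7. Of these 18, 10 were at the floor in all samples, among them Ccl2 and Cxcl10, the chemokine that interferon gamma induces. The receptors were Ccr1, Ccr1l1, Ccr2, Ccr3, Ccr4, Ccr6, Ccr7, Ccr8, Ccr9, Cxcr2, Cxcr3, Cxcr4 and Cxcr5. Cxcr3, the receptor of Cxcl9 and Cxcl10, reached 52.8 in sample 1 and was lowest in sample 4 at 19.6. Ccr6 had 41.4 and 40.9 in samples 1 and 2 and between 11.0 and 12.1 in the other samples.

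**Figure D3:**
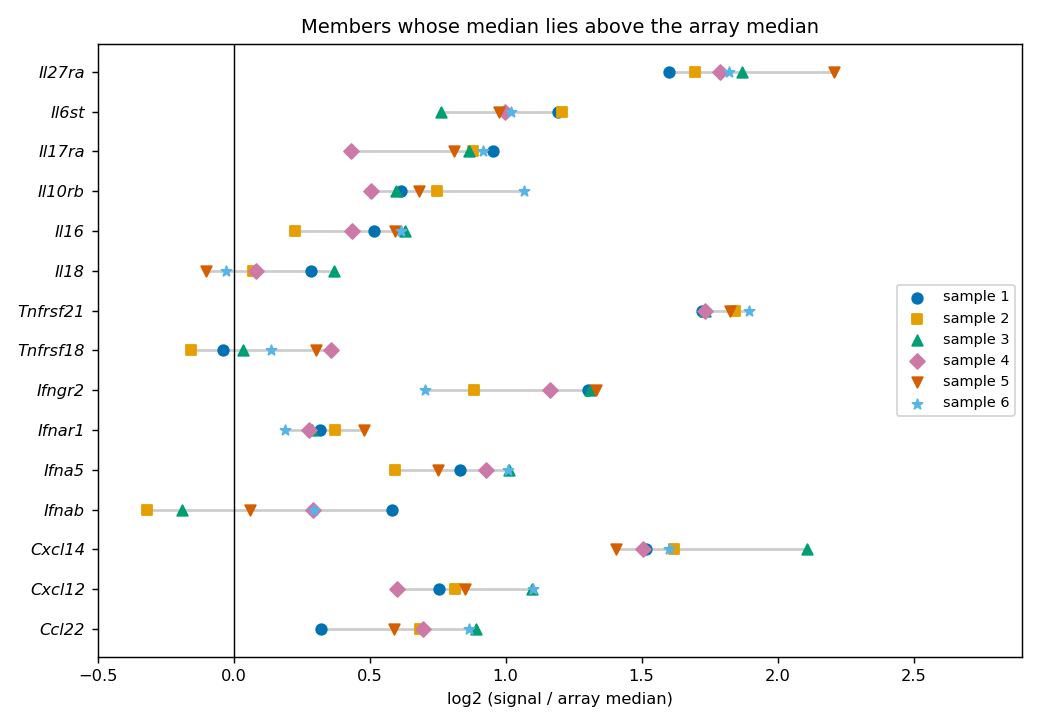
Level in each of the 6 samples (coloured symbols) of the 15 genes whose median lies above the array median, as log2 of signal over array median, with the vertical line at 0 for the array median. Sample 3 stands apart for Cxcl14 and sample 4 for Il17ra, while the 6 samples of Tnfrsf21 nearly coincide.

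For the 15 genes above the array median, the ranges over the samples ran from 0.17 to 0.90 on the log2 scale with a median of 0.52. For all 4840 genes above the array median the median range was 0.40, and for the 2559 other genes within the same span of levels it was 0.48, with quartiles of 0.34 and 0.65. Of the 15, 9 had a range above 0.48. None had a highest sample over 2 times its lowest, as 4.19% of all genes above the array median had. By sample, from 1 to 6, 2, 1, 5, 1, 3 and 3 of the 15 genes were highest after scaling, while the shares over all genes above the array median were 17.3%, 15.6%, 31.2%, 12.6%, 12% and 11.4%. Lowest after scaling were 3, 4, 1, 3, 2 and 2 of the 15, against 21.6%, 11.6%, 11.1%, 20.7%, 20% and 15%. Of the 15, 2 (13.3%), Cxcl14 and Il17ra, had 1 sample far from the other samples by Dixon's ratio, as had 5.89% of all genes above the array median. In deposited signals sample 6 held the highest value of 6 of the 15 genes and sample 3 of 2. The shares over all genes were not computed for deposited signals, so these counts are not shown to be particular to the 15.

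**Figure D4:**
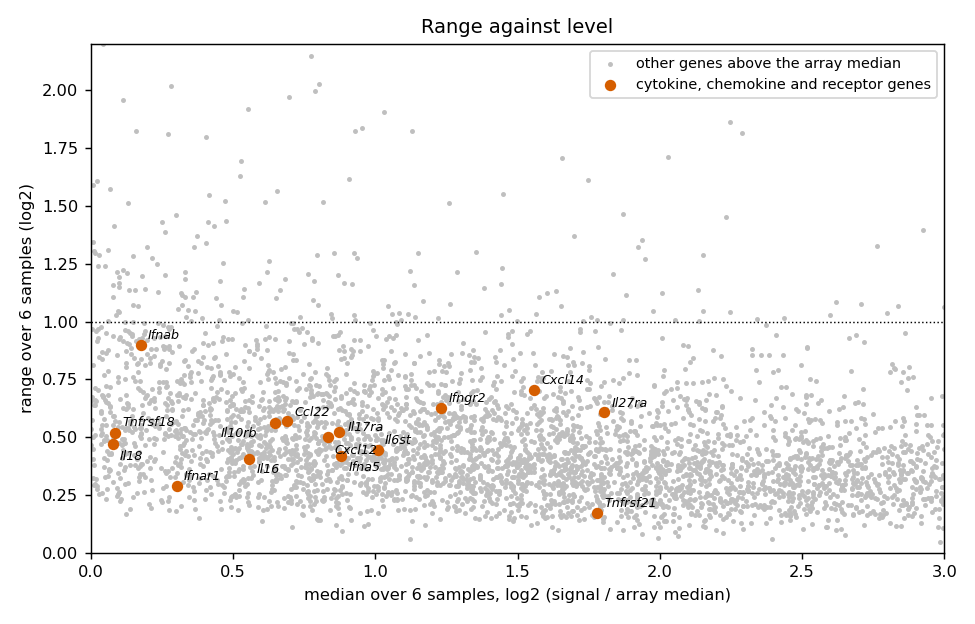
Range over the 6 samples (log2) against the median level (log2 of signal over array median) for genes above the array median, with the cytokine, chemokine and receptor genes in orange and other genes in grey. All 15 lie under the dotted line at a range of 1, and 874 genes with a level over 3 or a range over 2.2 lie outside the plotted window.

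Where a gene had several probe sets they did not always run alike, and 15 of the 111 genes had more than 1. The other Il6st probe set had signals of 75.7, 77.1, 71.2, 97.2, 103 and 101, lowest in sample 3 as the brighter one was, but higher in samples 4 to 6 than in samples 1 and 2. The other Il17ra probe set had 60.1, 70.4, 59.6, 57.6, 54.7 and 39.3, and was lowest in sample 6, not in sample 4. Of the dimmer Cxcl12 probe sets, 1 had 45.3, 63.1, 35.9, 54.1, 63.4 and 65.6, lowest in sample 3, where the brightest was near its highest. The order of samples for Il17ra, Cxcl12 and Il6st thus differed between probe sets. For Il6st sample 3 was the lowest in both, but in the dimmer one it lay close to samples 1 and 2. Il4 had 5 probe sets, all under the array median, and Ccl1, Cxcl1, Ifna4, Ifnar2, Il10, Il12rb1, Il1r2, Il4ra, Tnfrsf1a, Tnfrsf8 and Tnfrsf9 had a pair each.

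**Figure D5:**
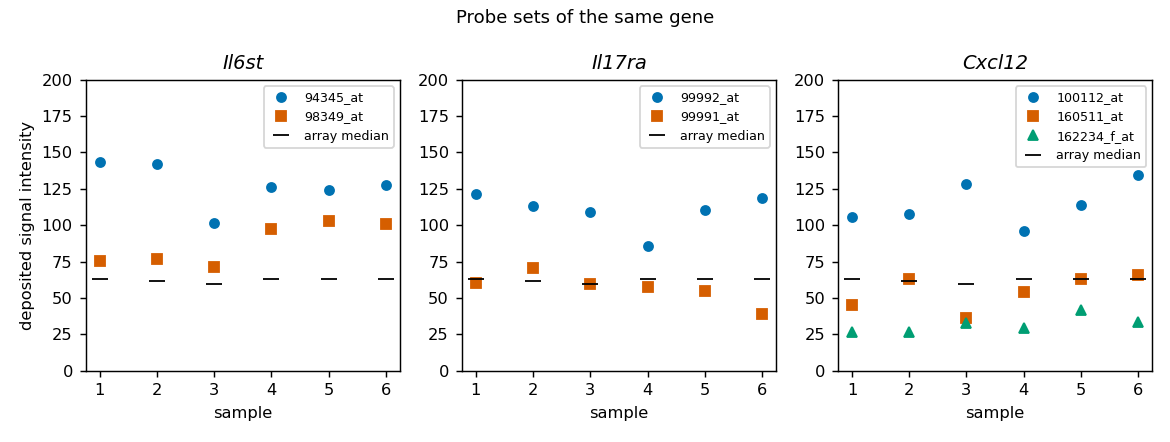
Deposited signal intensity in samples 1 to 6 of every single-symbol probe set of Il6st, Il17ra and Cxcl12, with the array median as black dashes. Blue circles are the probe sets used to represent each gene, and the low value of sample 4 for Il17ra is not seen in its other probe set.

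Genes that act downstream or belong to the same families under other names were taken from lists of textbook members. Of 39 cytokines, growth factors and receptors outside the name pattern, 18 were above the array median (46.2%), with a median range of 0.47. Over all 8252 genes 58.7% were above it, and the median range of those was 0.40. The chemokine fractalkine, Cx3cl1, which neurons make, had signals between 2932 and 3408, and its microglial receptor Cx3cr1 between 176 and 252, both above the array median in all samples. Csf2ra, a receptor chain for the growth factor GM-CSF, had the widest range among those 18, from 68.7 in sample 1 to 128 in sample 2, followed by Csf3 (1.86-fold) and Csf1 (1.59-fold). Of 18 JAK, STAT and SOCS signalling genes 11 were above the array median (61.1%). Among these 11 the kinase Tyk2 ranged most, from 78.1 in sample 2 to 169 in sample 4 (2.10-fold). Next came the STAT inhibitors Pias3 (1.79-fold) and Cish (1.48-fold). The Pias3 probe set has a name that marks shared probes, and it was under the array median in sample 4, at 59.4. Of 25 NF-kappa-B and death receptor signalling genes 14 were above the array median (56%). Tradd, the adaptor of the TNF receptor, had 81.6, 83.6, 159.7, 269, 248 and 75.4, so that samples 3, 4 and 5 were high and the range was 3.54-fold. Its probe-set name marks less specific probes. Some genes under the array median had wider measured ranges than any gene above it in the same list, on values not shown to be above background. Among them were Stat5b (3.57-fold), Ctf1 (2.44-fold) and Myd88 (3.74-fold, with 3 values at the floor). In the NF-kappa-B list, the genes above the array median next to Tradd in range were the inhibitor Nfkbib (1.94-fold) and the subunit Relb (1.89-fold).

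Of the interferon response list, 5 of 28 genes were above the array median (17.9%). The shares were 13.5% of the cytokine, chemokine and receptor genes and 58.7% of all genes. Irf7, a transcription factor that interferon induces, read on a probe set named as shared by related genes, was above the array median in 3 samples, with 36.7 in sample 4 and 83.5 in sample 5. Ifitm3, a membrane protein that restricts viruses, had 95.6 in sample 4 and 169 in sample 6, and B2m, the light chain of MHC class I, had 377 in sample 4 and 618 in sample 3. Sample 4 was the lowest for these 3 after scaling. The list's other genes above the array median ran otherwise, the transcription factor Irf9 being highest in sample 4 at 86.2 and the RNA-editing enzyme Adar lowest in sample 1 at 140.9.

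Marker lists describe the cells that could make these transcripts. All 5 measured neuronal markers and 8 of 10 microglial markers were above the array median in all samples, and the summed signal of the microglial list stayed between 2266 and 2448. Of 7 T cell markers only Cd4, which myeloid cells also carry, was above it, with Cd3g, Cd2 and Cd8a at the floor in all samples. None of 5 B cell markers and 1 of 8 neutrophil and monocyte markers had a median above it, namely Elane, above in 3 samples. Medians above it were found for 6 of 6 astrocyte, 4 of 4 oligodendrocyte, 5 of 6 meningeal, 2 of 7 endothelial, 1 of 2 red cell and 2 of 5 choroid plexus markers. The summed choroid plexus signal was 134, 140.7, 335, 1802, 723 and 2133 in samples 1 to 6. Ttr, the transthyretin gene, carried most of it in samples 3 to 6, with 1504 in sample 4 and 1798 in sample 6, whereas Aqp1, a water channel in the same list, was highest in sample 1 at 34.4. The part of this signal in the levels of the genes described here was not tested.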

How the data were processed

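RNA from 6 hippocampus samples was measured on oligonucleotide arrays of 12488 probe sets. Each deposited value is a linear signal intensity for 1 probe set. The sources used here do not give how the authors summarised and scaled the deposited intensity values. The mean between the 2nd and 98th percentile was 150.1 on every array, and 0 pairs of columns were identical. Gene names came from the annotation of the platform, where 10855 carried 1 symbol, 396 several and 1237 none. All 111 genes matched the RefSeq gene table (GRCm38.p6, used for names only) by gene identifier, with 0 symbols changed. A further 10 probe sets with several symbols, at least 1 of which fits the name pattern, were left out. Control-named probe sets were kept where they carry a symbol.

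Signals were divided by the array's median, computed without control probe sets, and log2 was taken. For ranges, a floor of 0.2 of the median was applied. The range is the highest minus the lowest sample. Genes above the array median are those whose median over the 6 samples is above 0 on this scale. The calculation of ranges was tested on simulated data. Named with values were genes above the array median in all samples and the 10 with the widest range among the 15 above it. So were the member of each family with the highest mean and the widest one above the array median. Added were the 3 closest to the array median on each side and 9 well-known genes (Tnf, Il1a, Il1b, Il6, Il10, Ifng, Ccl2, Cxcl12, Cxcr4). Added too were genes with a sample far from the others and the 3 widest of each pathway list. Genes with several probe sets were named, some of them by symbol only. Il18bp, Ifna9, Ccl6, Tnfrsf1b, Ifngr1, Il1r1, Ccl25, Irf9, Adar, Stat5b, Ctf1, Myd88, Ttr and Aqp1, and the order shared by pairs of receptor chains, were picked after their values were seen. The promoter search was not part of the planned analysis. The members, lists and settings were chosen with earlier results of these data known. Promoter sequences are from RefSeq (GRCm38.p6). Whether samples came from separate animals is not stated. Precision is limited by the number of arrays. Python 3.11.15, numpy 2.4.6 and pandas 2.3.3 were used.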

Additional observations from a re-analysis of the deposited data

Results flagged for a closer look

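Among the 43 genes of these families with no value at the floor, 5 (11.6%) had a sample far from the other samples, that is, a gap to its nearest neighbour that was a large part of the whole range (Dixon's ratio above its 95% critical value for 6 samples). Of all genes with no value at the floor, 6.20% had such a sample, and chance flags about 1 in 20 groups. Leaving out genes with a value at the floor was decided after the values were seen. Cxcl14 was high in sample 3 (ratio 0.699, signal 259) and Il17ra low in sample 4 (ratio 0.724, signal 85.5), both above the array median. Ccl1 was low in sample 1 (ratio 0.664, signal 44.7) and Tnfrsf19 high in sample 5 (ratio 0.663, signal 65.0), both near the array median. Tnfrsf4 was high in sample 2 (ratio 0.686, signal 17.7), far under the array median. The low value of Il17ra was not seen in its other probe set, which was lowest in sample 6. The other Ccl1 probe set was under the array median in every sample and lowest in sample 4.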

How the results depend on the processing

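The count of 15 genes above the array median, of 12 above it in all samples, of 0 with a highest sample over 2 times the lowest and the median range of 0.52 moved most with the threshold for expression. At the 75th percentile of each array 2 genes were above in the median and 2 in all samples. At the 25th percentile 49 were above in the median, 39 in all samples, and 12 had a highest sample over 2 times the lowest, partly on values under the array median. The shares over all genes at the 75th and 25th percentiles were not computed. With no scaling, quantile normalization or another floor the same 15 genes were above. The mean of probe sets gave 14, losing Cxcl12, and leaving out shared or less specific probe sets gave 13 of 104 genes, losing Ifna5 and Ifnab. Leaving out each sample in turn gave 15 to 16 genes, Ccl1 being gained without sample 1, 3 or 5, with 12 above in all remaining samples each time and median ranges from 0.46 to 0.51. Leaving out a sample can only narrow a range, and the share of all genes whose range narrowed as much was not computed. Of the 15 genes, 9 had a log2 range that shrank by over 1.5 times when 1 sample was left out. These were Il17ra without sample 4 (0.14), Cxcl14 without sample 3 (0.21), Il10rb without sample 6 (0.24), Il27ra without sample 5 (0.27), Il16 without sample 2 (0.19), Il6st without sample 3 (0.23), Ccl22 without sample 1 (0.30), Ifna5 without sample 2 (0.26) and Ifnar1 without sample 5 (0.18). Ifnab narrowed to 0.58 with the floor at the array median. Leaving out control-named probe sets, a setting added after seeing the data, changed none of the 4 results. No paired analysis was possible because the labels give no groups. Closest to the array median were Ifnab (0.18), Tnfrsf18 (0.09) and Il18 (0.08) above it and Ccl1 (-0.02), Ifnar2 (-0.09) and Il6ra (-0.14) under it.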
